A study of Homo sapiens with 8 samples.

Results

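The peaks described here are 2310 regions of H3K27ac that were lower in both the alectinib-resistant and the lorlatinib-resistant line than in the naive cells they came from, while in the crizotinib-resistant line they were not lower by 0.5 or more on the log2 scale. They were selected on the measured ChIP-seq values themselves: the rlog level, a log2 value, was lower by at least 1 in erAlec0 and in erLor0, changed by more than -0.5 in erCriz0, and was at least 3.91 in naive cells, which is log2 of 15 reads. The deposited table holds 126470 peaks, of which 69506 reached that naive level, so the lost peaks were 3.32% of the peaks that could have met the rule. All 4 ChIP-seq libraries took part in this choice, and the falls are therefore given as a description. Position, sequence and RNA took no part in it.

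H3122 is a human lung adenocarcinoma line driven by the EML4-ALK fusion kinase, which crizotinib, alectinib and lorlatinib inhibit. The study followed how such cells become resistant to each inhibitor. Resistant lines were derived from naive H3122 by stepwise increases in dose. In the end erCriz0 was maintained in 0.5 µM crizotinib, erAlec0 in 2 µM alectinib and erLor0 in 2 µM lorlatinib. Naive cells had not been selected in any inhibitor. The sample labels give 0.1% DMSO for the cells used for ChIP-seq, and for RNA the inhibitor was left out for 48 h. There is 1 library per line and assay, and each resistant line is 1 derived population, so a difference between lines cannot be told apart from a difference between libraries, and no test was run. The other 4 samples of the series (erCriz1, erLor1, Lor_2w and pooled input) were not used here.

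Acetylation of lysine 27 of histone H3 (H3K27ac) marks active promoters and active enhancers, the distal elements that raise transcription of genes at a distance. Enhancers carry short motifs for transcription factors, and the AP-1 family (FOS and JUN proteins), whose activity follows growth factor and MAPK signalling, binds many of those active in epithelial cells. A peak of H3K27ac can lie far from the gene it acts on, so the genes paired below with a peak are only genes nearby, at most 20 kb away.

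Central windows of 300 bases from a few lost peaks are shown as examples for the sequence comparison below. All are hg38, plus strand, and capitals mark matches to the AP-1 letters TGANTCA. Each printed window holds a match, whereas 424 of all 2310 lost peaks (18.4%) and 2 of 20 at RGS17 did. The printed windows are thus not typical of the lost peaks or of that run. The window at chr7:84071008-84071307 lies in an intron of SEMA3A, and that at chr2:157056246-157056545 is intergenic. They carry the form with G or C in the middle. The window at chr13:68346064-68346363 is intergenic, and those at chr6:153051989-153052288 and chr6:153038527-153038826 belong to lost peaks at RGS17. These 3 carry the form with A or T in the middle.
SEMA3A peak: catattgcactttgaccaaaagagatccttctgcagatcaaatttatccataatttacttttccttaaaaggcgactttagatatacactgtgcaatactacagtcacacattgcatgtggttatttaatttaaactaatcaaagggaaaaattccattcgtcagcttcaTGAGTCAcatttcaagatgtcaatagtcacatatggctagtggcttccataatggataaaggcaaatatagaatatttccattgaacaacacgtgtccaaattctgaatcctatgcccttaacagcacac
Chromosome 2 peak: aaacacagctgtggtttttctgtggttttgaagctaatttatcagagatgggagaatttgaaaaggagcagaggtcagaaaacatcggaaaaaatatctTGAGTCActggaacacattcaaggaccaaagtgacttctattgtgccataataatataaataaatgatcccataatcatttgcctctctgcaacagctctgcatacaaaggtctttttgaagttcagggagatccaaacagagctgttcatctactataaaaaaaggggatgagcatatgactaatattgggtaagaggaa
Chromosome 13 peak: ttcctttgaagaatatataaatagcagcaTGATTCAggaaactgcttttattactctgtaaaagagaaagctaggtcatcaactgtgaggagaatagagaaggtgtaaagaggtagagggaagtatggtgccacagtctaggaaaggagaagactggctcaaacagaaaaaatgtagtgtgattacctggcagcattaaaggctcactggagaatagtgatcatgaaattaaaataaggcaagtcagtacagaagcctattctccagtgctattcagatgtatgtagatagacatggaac
RGS17 peak of 3390 bases: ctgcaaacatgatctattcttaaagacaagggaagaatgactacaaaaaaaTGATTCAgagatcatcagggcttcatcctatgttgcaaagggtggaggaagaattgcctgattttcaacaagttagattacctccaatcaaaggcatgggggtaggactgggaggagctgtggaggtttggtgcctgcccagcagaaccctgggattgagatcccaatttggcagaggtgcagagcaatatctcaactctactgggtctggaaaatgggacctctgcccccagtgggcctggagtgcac
RGS17 peak of 23309 bases: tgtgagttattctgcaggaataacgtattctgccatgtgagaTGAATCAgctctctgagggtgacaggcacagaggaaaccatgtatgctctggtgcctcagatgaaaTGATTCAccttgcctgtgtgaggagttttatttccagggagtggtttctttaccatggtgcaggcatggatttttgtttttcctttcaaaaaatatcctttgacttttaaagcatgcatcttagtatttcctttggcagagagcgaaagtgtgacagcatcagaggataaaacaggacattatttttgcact

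The cells were epithelial by their RNA in all 4 libraries. The keratins KRT8, KRT18 and KRT19, the adhesion genes EPCAM and CDH1, the lung factor NKX2-1 and ALK lay at RNA levels of at least 8.10. The leukocyte genes PTPRC and CD3E and the endothelial genes PECAM1 and VWF did not exceed 0.19. CD68, also a leukocyte gene, lay between 1.47 and 1.69. Of the fibroblast genes, DCN and LUM stayed at or below 2.25, but COL1A1 lay between 9.49 and 10.08. Medians over peaks and genes differed little between libraries: the median rlog over all 69506 peaks ranged from 5.52 to 5.61, and that over 12701 expressed genes from 8.09 to 8.14. Expressed means an rlog of at least 4.64, log2 of 25 reads, in at least 1 library.

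The lost peaks were moderately strong in naive cells. Their median rlog was 6.34 in naive cells, 6.66 in erCriz0, 4.93 in erAlec0 and 4.93 in erLor0, whereas the median over all 69506 peaks was 5.52 in naive cells. The median change of erCriz0 was 0.08, that of erAlec0 -1.37 and that of erLor0 -1.34, and that of all 69506 peaks 0.02, -0.09 and -0.04. The median peak thus kept 38.6% of its naive level in erAlec0 and 39.5% in erLor0 on the rlog scale, which shrinks differences of weakly covered peaks. Falls of at least 2 were found for 139 peaks in erAlec0 and 138 in erLor0. Of all 69506 peaks, 357 in erAlec0 and 381 in erLor0 fell that far. The lost peaks were chosen to fall by at least 1 in both lines, which favours larger falls. In erCriz0, 1292 of the 2310 lay above the naive level and 230 by at least 1. Among all 69506 peaks, 35445 lay above it in erCriz0 and 4929 by at least 1. The rule left out peaks that fell past its limit in erCriz0, which raises these shares among the lost peaks. The counts are therefore no sign of a gain in erCriz0.

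**Figure D1:**
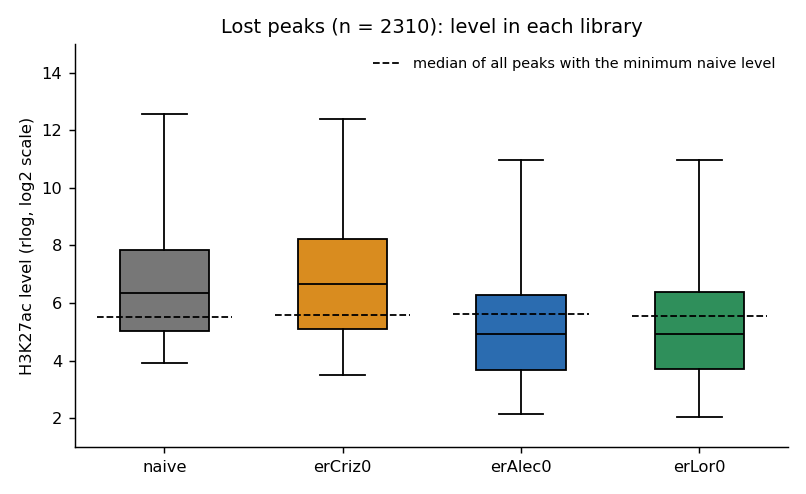
H3K27ac level (rlog, log2 scale) of the 2310 lost peaks in each of the 4 libraries. Boxes give the quartiles and the median, whiskers run from the lowest to the highest peak, and dashed lines give the median over all 69506 peaks with the minimum naive level; the medians of the lost peaks are 6.34, 6.66, 4.93 and 4.93.

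The rule has sharp limits through a continuous range of values. The erCriz0 change of the lost peak nearest its limit was -0.49965, and that of the nearest peak left out was -0.50014. Within 0.1 of the limit lay 300 peaks inside and 294 outside for erAlec0, 370 inside and 364 outside for erLor0, 241 inside and 230 outside for erCriz0, and 56 inside and 60 outside for the naive level. Many peaks just outside therefore behaved much like peaks just inside.

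Among the 10 lost peaks with the largest mean fall over erAlec0 and erLor0 was a peak of 1259 bases over the pseudogene ST13P12, at chr5:82976115-82977373. It stood at 7.22 in naive cells, 6.97 in erCriz0, 4.46 in erAlec0 and 4.45 in erLor0. Another, of 9068 bases in an intron of BTBD3, at chr20:11899488-11908555, stood at 9.58, 9.33, 6.99 and 6.95 in the same order. In both peaks erCriz0 lay within 0.26 of naive cells, while both other lines lay more than 2.5 lower. The strongest lost peak in naive cells, of 13152 bases in an intron of SLC25A21, stood at 12.57 there, 12.39 in erCriz0, 10.98 in erAlec0 and 10.96 in erLor0. A peak of 24882 bases that lies within PIWIL1, a gene of the piRNA pathway of the germ line, and covers an annotated start stood at 11.81, 11.48, 9.08 and 9.73.

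The lost peaks lay mostly in introns and seldom at transcription starts. Only 255 of them (11.0%) contained an annotated start, against 25.5% of all 69506 peaks. Their centres lay in an intron for 1499 (64.9%, against 50.8%), in an exon for 88 (3.81%, against 5.95%) and between genes for 468 (20.3%, against 17.7%). Of the 1443 peaks that fell by at least 1 in all 3 resistant lines, 5.89% held a start, and of the 2463 peaks that rose by at least 1 in erAlec0 and erLor0 but by less than 0.5 in erCriz0, 19.5% did. The low share of starts was thus also found in the peaks lost in all 3 lines.

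The lost peaks were longer than all peaks with the minimum naive level and poorer in G and C. Their median length was 1794 bases and that of all peaks 1113, and their median GC content was 42.7% against 48.5%. The peaks gained in erAlec0 and erLor0 were longer still, with a median of 2140 bases, and those lost in all 3 lines shorter, with 779. Their median GC content was also low, at 44.6% and 43.6%. Levels come from reads over the whole peak, not scaled to length, so length can enter the rule through coverage. By naive level, the share lost was 1.70% in the lowest of 5 groups, 4.81% in the next to highest and 4.32% in the highest. The part of coverage in the difference of length was not tested. When the 69506 peaks were split by GC content into 5 groups of equal size, the share lost fell from 7.10% in the lowest group through 4.38%, 2.47% and 1.82% to 0.849% in the highest. The change of all peaks moved with GC content too: from the lowest to the highest group its median went from -0.16 to 0.22 for erCriz0, from -0.24 to 0.02 for erAlec0 and from -0.34 to 0.26 for erLor0. Subtracting from each change the median of peaks of like GC content left 1626 peaks that met the rule, 1398 of them among the 2310, and the share at a start became 14.1%.

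Chromosomes differed in the share of their peaks that was lost. The highest shares were 6.19% on chromosome 5 (231 of 3732) and 5.78% on chromosome 6 (243 of 4203), and the lowest was 1.13% on chromosome 22 (18 of 1595), leaving out chromosome Y with 2 peaks. Chromosomes 5, 6, 20, 13 and 8 all lay above 4.9%. Copy number in these lines was not examined here, and its part in these shares was not tested. With a regional median subtracted, taken over the other peaks at most 5 Mb away, 2162 peaks met the rule, of which 1567 were among the 2310.

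**Figure D2:**
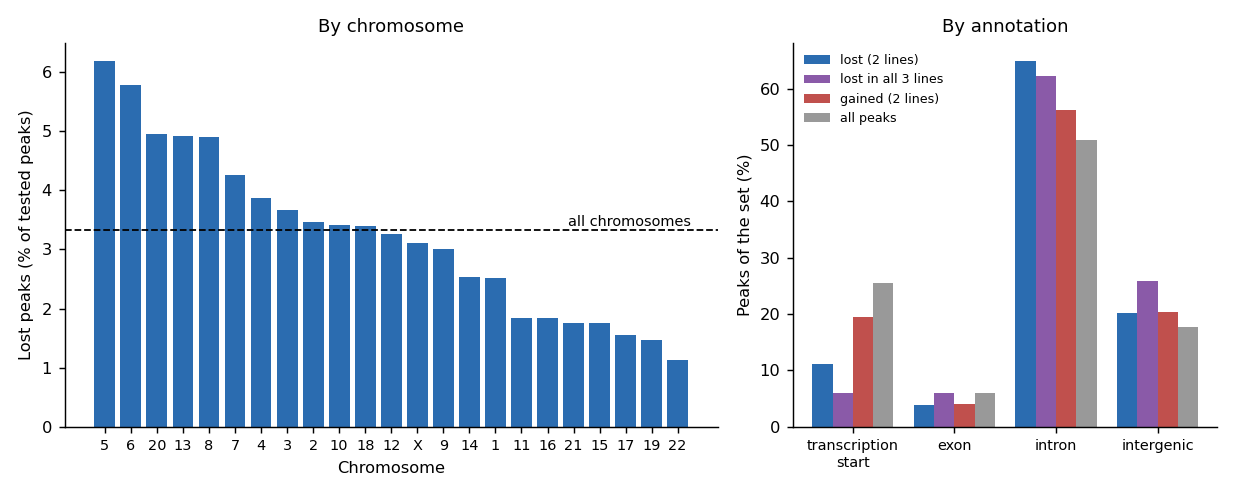
Left, lost peaks as a percentage of the peaks with the minimum naive level on each chromosome, in falling order, with the share over all chromosomes as a dashed line (3.32%). Right, percentage of each set of peaks that contains a transcription start or has its centre in an exon, in an intron or between genes; lost peaks hold a start in 11.0% of cases and all peaks in 25.5%.

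Lost peaks often lay close to each other. Another lost peak was found within 50 kb for 1399 of 2310 (60.6%), within 20 kb for 53.0% and within 100 kb for 66.1%. The same share within 50 kb was 69.6% for the peaks lost in all 3 lines and 51.3% for those gained in erAlec0 and erLor0. It was not computed for an equal number of peaks drawn from all peaks. Some neighbours almost touch: a lost peak at RGS17 ends at 153068753 on chromosome 6, and the next starts at 153068815. The part of such splitting in these shares was not tested. Linking lost peaks at most 50 kb apart gave 1355 groups, of which 911 were single peaks, 59 held 5 or more and 9 held 10 or more. The 59 larger groups held 427 lost peaks (18.5%).

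The run with the most lost peaks lay over RGS17, which encodes a regulator of G protein signalling that speeds the return of G alpha proteins to their inactive form. Of 27 peaks with the minimum naive level between 153016766 and 153171083 on chromosome 6, 22 were lost. Over the 127-kb gene body itself, 19 of 20 were. The span with 27 peaks runs from the first to the last lost peak of the run, which raises the share lost within it. The peak of 16286 bases that covers the RGS17 start, at chr6:153115063-153131348, stood at 11.20 in naive cells, 11.65 in erCriz0, 9.52 in erAlec0 and 10.01 in erLor0. The strongest, of 23309 bases at chr6:153027023-153050331 further along the gene, stood at 11.51, 11.79, 10.04 and 10.27. Both were above naive cells in erCriz0 and below in the other lines.

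Of the 20 lost peaks paired with the gene, erCriz0 changes ranged from -0.27 to 1.26 and 14 were above 0. In erAlec0 the changes ranged from -2.23 to -1.41 and in erLor0 from -2.13 to -1.16. All 20 were thus lower than naive cells in both lines by more than 1.15. Before the gene's start, the 4 peaks that did not meet the rule changed by -1.08, -0.54, -0.81 and -0.91 in erAlec0 and by -0.82, -0.08, -0.72 and -0.40 in erLor0, so the lower levels were not limited to the lost peaks there. Beyond the far end of the gene, the next 2 peaks changed by -0.04 and 0.50 in erAlec0 and by 0.02 and 0.25 in erLor0. With the regional median subtracted, 12 peaks at RGS17 met the rule, and with the GC trend subtracted 14 did.

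**Figure D3:**
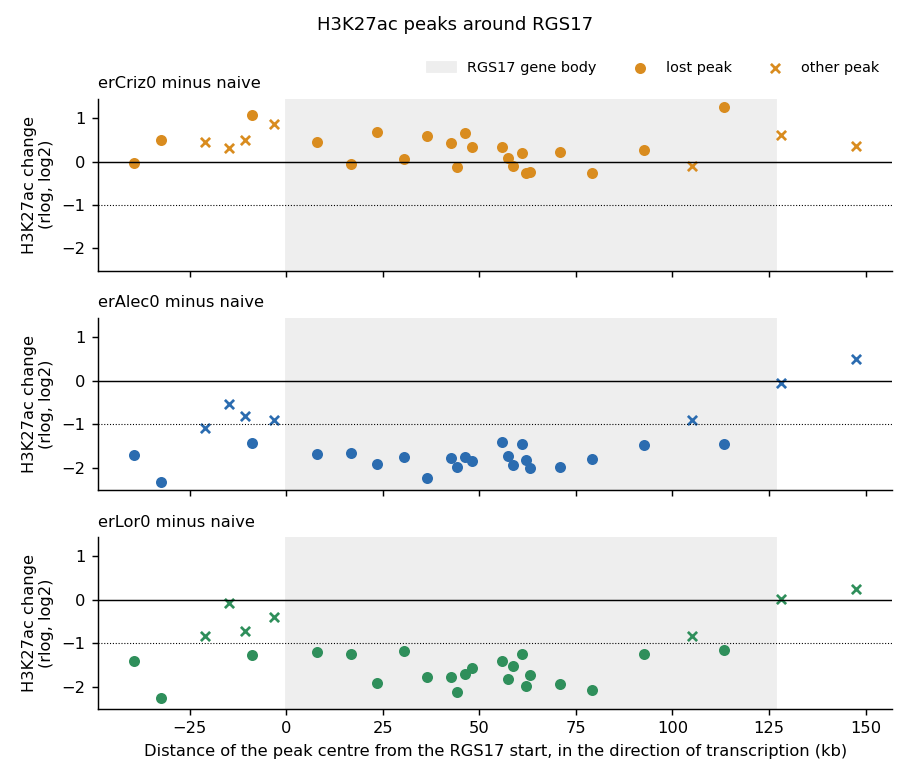
H3K27ac change from naive cells (rlog, log2 scale) of the peaks around RGS17, by distance of the peak centre from the gene's start in the direction of transcription, 1 panel per resistant line. Circles are lost peaks, crosses other peaks with the minimum naive level, and the grey band is the gene; the lost peaks lie between -0.27 and 1.26 in erCriz0 when paired with the gene, and below -1 in both other lines.

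Other runs with many lost peaks lay at ITGA2, AHR and EFNA5. The span of each run below goes from its first to its last lost peak, which raises the share lost within it. ITGA2 encodes the alpha 2 subunit of a collagen-binding integrin, and all 11 peaks between 52984358 and 53038559 on chromosome 5 were lost. Its start peak stood at 9.52 in naive cells, 10.19 in erCriz0, 8.12 in erAlec0 and 8.33 in erLor0. Of the 11, 9 lay above naive cells in erCriz0. Beside AHR, a ligand-activated transcription factor, 16 of 36 were lost over 247 kb. At EFNA5, an ephrin ligand, it was 10 of 22, at MTHFD1L, a mitochondrial enzyme of folate metabolism, 10 of 24, and at SEMA3A, a secreted guidance cue, 9 of 19. Some runs held no expressed gene: 11 of 15 peaks were lost at 25019978 to 25102883 on chromosome 1, 10 of 11 at 46743745 to 46788833 on chromosome 7 and 8 of 8 at 22345432 to 22391107 on chromosome 20.

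Of the 17 motifs searched, AP-1 had the highest ratio of its share in lost peaks to its share in all peaks. The letters TGANTCA, on either strand, were found in the central 300 bases of 424 of 2310 lost peaks (18.4%) and in 10.1% of all 69506 peaks, a ratio of 1.82. The share was 10.7% in the peaks lost in all 3 lines and 8.93% in the peaks gained in erAlec0 and erLor0. Without peaks at a start it was 18.2% of lost peaks and 11.3% of all.

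The share with AP-1 letters was higher in lost peaks than in all peaks in each of 5 groups by GC content and each of 5 by naive level, some of them small. By GC content it ran from 19.7% (194 of 987) against 13.7% in the lowest group to 7.63% (9 of 118) against 4.67% in the highest. By naive level it was closest in the lowest group, with 10.5% (25 of 237) against 9.37%, and farthest apart in the next to highest, with 24.2% (162 of 669) against 11.1%. With the GC trend subtracted from the changes, 17.7% of the peaks that met the rule held a match. The form with G or C in the middle, TGAGTCA or its complement TGACTCA, was in 12.7% of lost peaks (95% exact binomial interval 11.4 to 14.2, for counting error only) and 6.46% of all (6.28 to 6.64), a ratio of 1.97. The SEMA3A window printed above holds it. The form with A or T, TGATTCA or TGAATCA, was in 6.41% and 3.96%, a ratio of 1.62, and both RGS17 windows hold it. In the peaks lost in all 3 lines the shares were 5.68% and 5.20%. Peaks of 1 run are neighbours and do not count as independent.

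The other 16 motifs had lower ratios, from 0.470 to 1.33. On either strand, the forkhead letters TGTTTAC were in 5.89% of lost peaks and 4.41% of all, the RUNX letters TGTGGTT in 6.93% and 5.28%, and the GATA letters AGATAA in 17.3% and 13.3%. TEAD letters, GGAATG, were as common in lost peaks (16.1%) as in all peaks (16.0%). Below all peaks lay the E-box letters CAGGTG, in 590 of 2310 lost peaks and 20856 of all 69506, the KLF letters GGGTGTGG, with 2.68% and 3.50%, and the NKX2-1 letters CACTTGA, with 5.97% and 6.96%. The ETS letters CCGGAAGT were in 0.346% of lost peaks and 0.737% of all, a ratio of 0.470. Without peaks at a start the ETS shares were 0.243% and 0.249%, while the E-box shares were 25.5% and 30.8%. The runs were not uniform in AP-1 matches: 2 of 20 lost peaks at RGS17 held one, 4 of 20 at the long noncoding gene ENSG00000258077, 3 of 12 at EFNA5 and 0 of 11 at ITGA2.

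**Figure D4:**
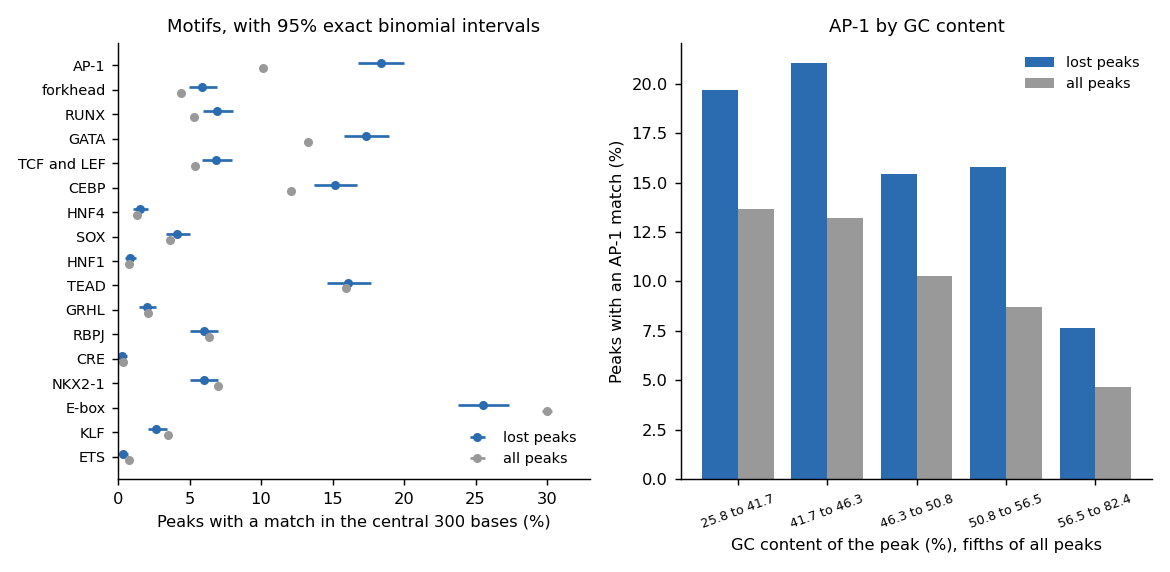
Left, percentage of peaks with a match to each of 17 motifs in the central 300 bases, for lost peaks and all peaks with the minimum naive level, with 95% exact binomial intervals. Right, percentage with an AP-1 match in 5 groups of equal size by GC content; lost peaks lie above all peaks in each group, from 19.7% against 13.7% to 7.63% against 4.67%.

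RNA of AP-1 factors did not fall past the limit in any line. Of 10 genes of FOS and JUN proteins and their partners, 8 were expressed, none was paired with a lost peak, with a median RNA change of -0.40 for erCriz0, 0.36 for erAlec0 and 0.16 for erLor0. FOSL2 rose by 1.28 in erCriz0 and was the only one past 1 in any line.

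Within 20 kb of the lost peaks lay 2584 genes, of which 1147 were protein-coding and 844 long noncoding. An expressed gene lay within that distance for 1270 lost peaks (55.0%), against 76.8% of all 69506. The expressed genes paired with a lost peak numbered 840, or 6.61% of the 12701 expressed genes. They had a median of 9 peaks with the minimum naive level each, against 4 for all expressed genes, and their median naive RNA level was 8.36 against 8.14. The part of these differences in the RNA comparison was not tested.

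The RNA of the paired genes moved little as a group. Over the 840 genes the median change of erCriz0 was 0.09, that of erAlec0 -0.01 and that of erLor0 -0.05, where all 12701 had -0.02, 0.00 and 0.00. The erAlec0 median became 0.02 when RNA was centred on expressed genes. A fall of at least 1 was found in erAlec0 for 36 of 840 (4.29%, against 2.07% of all expressed genes), in erLor0 for 27 (3.21%, against 0.740%) and in erCriz0 for 24 (2.86%, against 1.65%). A rise of at least 1 was found in erAlec0 for 39 (4.64%, against 2.46%), in erLor0 for 9 (1.07%, against 1.10%) and in erCriz0 for 64 (7.62%, against 2.65%). In erCriz0 and erAlec0 both directions were more frequent in the paired genes than in all genes, in erLor0 falls only. The 3 lines share the naive library.

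Genes near many lost peaks showed a wider gap between lines. For the 48 genes with at least 5 lost peaks, the median RNA change of erCriz0 was 0.36, that of erAlec0 -0.14 and that of erLor0 -0.23. In erLor0, 35 of the 48 (72.9%, against 50.6% of all expressed genes) lay below naive cells. A fall of at least 1 was found for 4 (8.33%, against 0.740%), among them RGS17, CLDN10 and PIP5K1B. In erAlec0, 28 (58.3%, against 49.7%) lay below, 3 fell by at least 1 (6.25%, against 2.07%) and 3 rose by at least 1 (6.25%, against 2.46%). In erCriz0, 11 (22.9%, against 52.1%) lay below, and 6 rose by at least 1 (12.5%, against 2.65%): ITGA2, HPSE2, CD55, LTBP1, MCTP1 and GPC6. HPSE2 stood at only 3.61 in naive cells and 4.95 in erCriz0, near the limit of expression. For the 93 genes whose own start lay in a lost peak, RNA fell by at least 1 for 7 in erAlec0 (7.53%, against 2.07% of all expressed genes), 9 in erLor0 (9.68%, against 0.740%) and 6 in erCriz0 (6.45%, against 1.65%). It rose by at least 1 for 6 (6.45%, against 2.46%), 3 (3.23%, against 1.10%) and 10 (10.8%, against 2.65%) of them.

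RNA fell by at least 1 in both erAlec0 and erLor0 for 17 paired genes (2.02%, against 0.512% of all expressed genes). In 14 of the 17, RNA was also lower by at least 0.5 in erCriz0. The rule fixes that their lost peaks did not fall by 0.5 there, but not how their other peaks behaved. Over all peaks of a gene with the minimum naive level, the median erCriz0 change in these 14 ranged from -1.09 at F13A1 to 1.68 at PRSS1. Only RGS17, CLDN10 and GCNT1 had an erCriz0 change above -0.5 (0.357% of 840, against 0.173% of all expressed genes). Of all 65 expressed genes whose RNA fell by at least 1 in both lines, 22 had such an erCriz0 change. Most of the 65 were thus also lower by at least 0.5 in erCriz0, so this was not particular to the paired genes.

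RGS17 RNA stood at 10.04 in naive cells, 10.72 in erCriz0, 8.65 in erAlec0 and 8.89 in erLor0. Relative to naive cells it rose by 0.68 in erCriz0, fell by 1.39 in erAlec0 and fell by 1.15 in erLor0, and kept 38.1% and 45.0% of its naive level in the latter lines. CLDN10, which encodes a claudin of tight junctions that forms ion channels between cells, stood at 10.44, 11.08, 9.40 and 9.29 in the same order, with 5 of 18 peaks lost. Its strongest lost peak, at chr13:95528475-95537076, stood at 10.32, 10.62, 8.43 and 8.84. In RNA and in the named peaks of both genes, erCriz0 was highest and naive cells were next. The other CLDN10 peaks did not all share this order: of its 5 lost peaks 2 lay above naive cells in erCriz0, and their median change there was -0.19. GCNT1, an enzyme that branches O-linked glycans, stood at 9.16, 8.97, 7.80 and 8.08 in RNA, but with 1 lost peak of 42. CLDN10 overlaps CLDN10-AS1 and DZIP1 on the other strand, and GCNT1 overlaps PRUNE2 likewise. Whether the authors counted by strand is not given in the sources used here, so reads of such pairs may be shared.

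The other 14 genes were lower than naive cells in all 3 lines. The largest falls were those of BPIFB2 and BPIFA2, secreted proteins of the mouth and airway, and of the trypsinogens PRSS1 and PRSS2. BPIFB2 RNA stood at 9.13 in naive cells, 6.65 in erCriz0, 5.77 in erAlec0 and 5.69 in erLor0. Both of its peaks with the minimum naive level were lost, the stronger at 10.13 in naive cells and 10.45 in erCriz0. PRSS2 stood at 9.88, 8.02, 6.37 and 6.81, with 2 of 5 peaks lost. Trypsinogen genes are near copies of each other, and reads can be assigned to the wrong one, so the values of PRSS1 and PRSS2 are uncertain. FGF19, a growth factor that signals through FGFR4, stood at 8.07, 4.77, 5.12 and 5.40, and fell most in erCriz0. SOBP had 4 of 10 peaks lost, and its RNA stood at 7.16, 5.38, 5.06 and 4.78. Others were SULF2, GPRIN3, ANK2, MYT1, F13A1, RIMBP2 and NGFR, of which MYT1 had 4 lost peaks and each of the others 1.

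**Figure D5:**
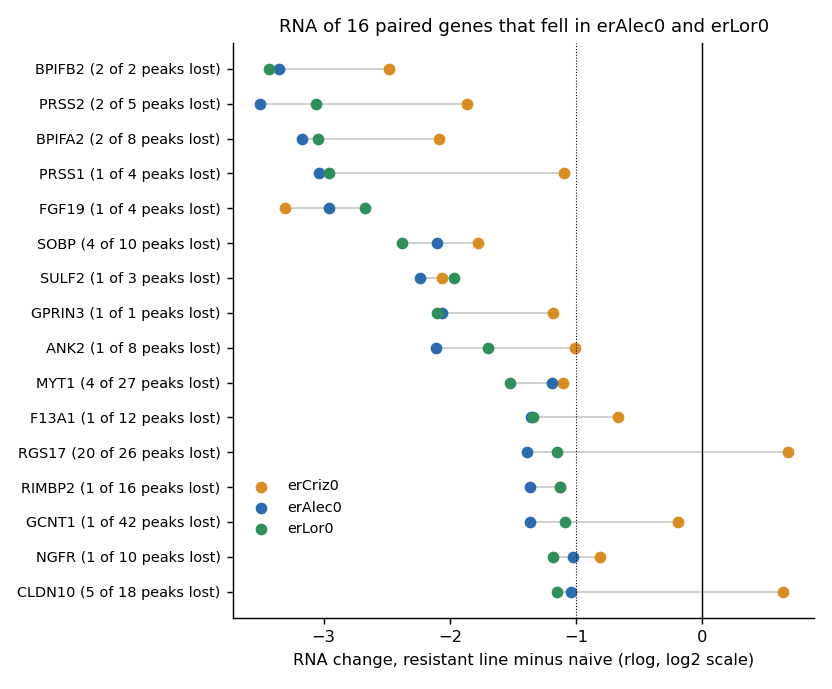
RNA change from naive cells (rlog, log2 scale) of 16 of the 17 paired genes whose RNA fell by at least 1 in erAlec0 and erLor0, with the number of lost peaks of the peaks with the minimum naive level. Points are single libraries; RGS17 and CLDN10 lie above 0 in erCriz0 (0.68 and 0.64), and the other genes lie below 0 in all 3 lines.

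Some genes near lost peaks rose. VGF, a secreted neuropeptide precursor, had 1 of 8 peaks lost and stood at 9.26 in naive cells, 11.87 in erCriz0, 11.51 in erAlec0 and 11.27 in erLor0. UNC13A, which primes synaptic vesicles for release, stood at 8.18, 10.12, 10.11 and 9.51 although 3 of its 4 peaks were lost. TCIM, FOXQ1 and SCEL also rose by at least 1 in all 3 lines. Loss of H3K27ac nearby was thus found beside RNA change in either direction.

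The other genes with the most lost peaks changed by less than 1 in erAlec0 and erLor0 RNA. ENSG00000258077 had 20 of 70 peaks lost and RNA at 4.68, 4.26, 4.58 and 4.45, close to the limit of expression. EFNA5 had 12 of 36 lost and stood at 9.66, 10.15, 9.40 and 9.19. ITGA2 had 11 of 12 lost, and its RNA stood at 12.35 in naive cells, 13.43 in erCriz0, 12.17 in erAlec0 and 12.35 in erLor0. ITGA2 RNA thus rose by 1.08 in erCriz0, fell by 0.18 in erAlec0 and differed by 0.00 in erLor0. ITGA2 overlaps ITGA2-AS1 on the other strand. MTHFD1L, SEMA3A, HPSE2, NAALADL2 and NOL4L had 9 or 10 lost peaks each, and their RNA changes ranged from -0.60 to 0.55 in erAlec0 and from -0.65 to -0.13 in erLor0.

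Of all expressed genes, 6.61% had a lost peak, and the counts of the gene lists below stand against that share. Genes with a lost peak had more peaks each than all expressed genes, and the part of this in the counts was not tested. Among 28 genes of integrins, laminins and collagens, 7 of 27 expressed had a lost peak, and none fell by at least 1 in erAlec0 or erLor0. RNA rose by at least 1 for 5 of the list in erCriz0, 6 in erAlec0 and 1 in erLor0. The shares over all expressed genes were 2.65%, 2.46% and 1.10%. In this list ITGB4, the beta subunit of a laminin-binding integrin of hemidesmosomes, had 1 of 11 peaks lost and rose by 1.01 in erAlec0, and ITGA6, its partner, had 3 of 5 lost and changed by 0.15 there. Of 24 expressed guidance cues and receptors, 6 had a lost peak, SEMA3A with 10 and the co-receptor NRP1 with 4 of 37, and NRP2 RNA fell by 1.02 in erLor0. Of 18 expressed mucins and secreted airway proteins, 4 had a lost peak. RNA fell by at least 1 for 4 of the list in erCriz0, 4 in erAlec0 and 8 in erLor0. The shares over all expressed genes were 1.65%, 2.07% and 0.740%. Among the 8 were BPIFB2, BPIFA2 and MUC13, which had a lost peak, and BPIFA1, BPIFB1, TFF3, LCN2 and SLPI, which had none. BPIFA1 fell by 3.18 in erAlec0 and by 3.03 in erLor0. Of 17 expressed targets of YAP, TAZ and TEAD, 4 had a lost peak (NT5E, CRIM1, CCN2 and PTPN14), and none fell by at least 1 in any line.

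Growth signalling genes with lost peaks did not fall in RNA past the limit. Of 20 expressed genes of ERK output and feedback, 3 had a lost peak, again against 6.61% of all expressed genes, and DUSP5, a phosphatase of ERK, rose by 1.45 in erAlec0 with 3 of 4 peaks lost. Among 26 expressed receptor tyrosine kinases only MET and EGFR had one. MET, the receptor of hepatocyte growth factor, had 3 of 18 peaks lost and stood at 11.91 in naive cells, 12.63 in erCriz0, 12.02 in erAlec0 and 11.87 in erLor0. EGFR had 1 of 14 lost and stood at 10.84, 11.93, 11.69 and 11.51. One expressed lung lineage gene of 10 had a lost peak, SLC34A2, and it rose by 5.62 in erCriz0 and 1.07 in erAlec0.

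In the remaining lists at most 5 expressed genes had a lost peak, where all expressed genes had one in 6.61% of cases. Of 24 expressed genes of epithelial junctions and splicing, KLF5, TJP3 and EPCAM had one, and of 13 expressed genes of epithelial-mesenchymal transition 1 did. Lost peaks were found at 2 of 20 expressed WNT genes, 3 of 17 expressed Notch genes, 1 of 25 expressed genes of TGF-beta and BMP signalling and 2 of 20 expressed interferon-stimulated genes. In these lists none of the genes with a lost peak fell by at least 1 in any line, and IFI16, a sensor of foreign DNA, rose by 5.02 in erCriz0. Of 38 expressed factors that bind the searched motifs, 5 had a lost peak: TP63, RUNX2, RBPJ, KLF5 and HNF4G.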

How the data were processed

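H3K27ac ChIP-seq and RNA-seq of naive H3122, erCriz0, erAlec0 and erLor0 were used, with 1 library of each per line. The authors deposited 1 table of peak and gene pairs at most 20 kb apart, with log2 values (DESeq2 rlog over the 4 libraries, which divides reads by a size factor and shrinks differences of features with few reads). Per the methods of the study, ChIP-seq duplicates were marked with picard, peaks called with MACS2 and merged over 4 samples, listed regions removed, and reads counted with featureCounts, with BWA named as aligner in the submitters' processing notes and versions not given in the sources used here; RNA-seq reads were realigned to hg38 with HISAT2 and counted with HTSeq-count, with the strand setting not given in the sources used here. The deposited correlation of each pair (a score, r) and its p-values are the authors' own comparison and were not used. Read totals are unknown, so no counting error of levels is given.

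A change is the rlog in a resistant line less the naive rlog. Each Peak_ID was taken once. Annotation came from GENCODE release 44, whose names matched 43669 of 43869 genes, and sequence from hg38. The rule for names took the 10 peaks with the largest mean fall, the 5 with the highest naive level, expressed paired genes with an RNA fall of at least 1 in erAlec0 and erLor0, the 5 largest mean RNA rises in these lines, the 8 genes with most lost peaks (9 with a tie) and list members with a lost peak; not all are named in the text, and some items are not reported here. Genes in other counts, the windows to print and the split of the AP-1 letters were chosen after values were seen. Members and gene lists were chosen with earlier results of these data known. Other normalizations, limits, windows and filters were tried, and functions were tested on simulated data. Python 3.11.15, pandas 2.3.3, numpy 2.4.6, scipy 1.17.1 and matplotlib 3.10.9 were used.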

Additional observations from a re-analysis of the deposited data

Results flagged for a closer look

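RGS17 and CLDN10 RNA moved one way in erCriz0 and the other way in erAlec0 and erLor0, relative to the same naive library. RGS17 rose by 0.68 in erCriz0 and fell by 1.39 in erAlec0 and by 1.15 in erLor0. CLDN10 rose by 0.64 in erCriz0 and fell by 1.04 in erAlec0 and by 1.15 in erLor0. Each line has 1 library, so the difference between lines was not tested.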

How the results depend on the processing

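With 1 library per line, no value has a replicate error, and a setting is described only by how far it moved a value. No paired analysis was possible because each line has 1 library and no result comes from a test. The number of lost peaks was 2310. It was 6651 with a fall of at least 1.5-fold, 450 with a fall of at least 1.5 on the log2 scale and 1292 with an erCriz0 change above 0. Over the other planned settings it ranged from 1747 to 2683, and 1937 of the 2141 peaks found after centring each library and 1921 of the 2607 found after quantile normalization were among the 2310. Subtracting the GC trend, a setting added after seeing the data, gave 1626. The share at a transcription start was 16.6% when a start within 1 kb counted (35.7% of all peaks), 13.7% with a naive minimum of 5 and 14.1% with the GC trend subtracted. The share with another lost peak nearby was 53.0% at 20 kb and 66.1% at 100 kb, and the share with AP-1 letters was 32.2% in 600 bases (19.4% of all peaks). In the part of the table written to at most 6 decimals 4.31% of peaks were lost, and in the rest 2.59%, with AP-1 letters in 18.6% and 18.1% of the lost peaks. The median RNA change in erCriz0 was 0.21 for peaks paired with 1 gene and 0.21 for genes with at least 2 lost peaks. The medians of erAlec0 and erLor0 moved by less than 0.1 under every planned setting, and the shares of genes that fell stayed within the 95% exact binomial intervals of their main values. At RGS17 between 12 and 20 peaks met the rule over the settings examined, at ITGA2 between 4 and 11 and at CLDN10 between 0 and 5, each lowest with a fall of at least 1.5 (at RGS17 also with the regional median subtracted).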
